A study of Canis lupus familiaris with 3 samples.

Results

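The genes described here encode proteins that splice pre-mRNA, regulate splicing or unwind RNA. They were chosen by symbol on the array: spliceosomal snRNP, SF3, U2AF, PRPF and LSM proteins, SR proteins and their kinases, hnRNP and PTBP proteins, the RBM, RBFOX, CELF, ESRP, MBNL, NOVA, KHDRBS and TIA families, and the DDX and DHX helicases. Of 94 such genes on the array, 83 had a value on all 3 arrays, out of 5508 named genes that did. No RBFOX gene was among the 94, nor was ESRP1. The only U2AF symbol was U2AF1L4, which is outside the 83. The symbol rule also took in TIAM1, TIAM2 and TIAF1, which are no splicing or helicase genes, and these are described apart. Genes of the same kind that carry other symbols (SNRNP40 or SFPQ, for example) are outside the 83 and are given at the end.

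The samples were cells of MDCK, an epithelial cell line derived from the kidney of a dog. Transfectants carrying E47, a helix-loop-helix transcription factor that the series title names as a repressor of E-cadherin, were compared with MDCK-CMV control cells, which are not described further in the labels. Both were grown in DMEM with serum and antibiotics. RNA of E47 cells and RNA of control cells were hybridised together, in different dyes, to arrays of human cDNA clones. A first E47 extraction was used on 1 array, labelled with Cy5, and a second on 2 arrays as a dye swap, labelled with Cy3 or Cy5, so n = 2 extractions on 3 arrays. Whether the extractions came from separate cultures or separate transfected clones is not stated. The p-values rest on the spread between these extractions, which the fit draws strongly towards a spread shared by all features. That spread includes a part of the dye, since the first extraction was labelled with Cy5 only.

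Introns are removed by the spliceosome, whose snRNP particles each hold a small nuclear RNA inside a ring of Sm proteins. The ring is put together from preformed units: SNRPE, SNRPF and SNRPG form one, SNRPB and SNRPD3 another, and SNRPD1 and SNRPD2 the remaining one. SR proteins mostly favour and hnRNP proteins mostly oppose the use of nearby exons, and tissue-specific regulators such as the ESRP, MBNL and PTBP proteins shift exon choice between cell types, in the epithelial to mesenchymal transition among others. DEAD-box and DEAH-box helicases remodel RNA and RNA-protein complexes in splicing, ribosome assembly, translation and decay. A cDNA clone sums the isoforms it can bind, so the ratios below concern amounts of transcript and not exon use.

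All values are log2 ratios of E47 cells over control cells, centred near 0 on each array, so that 1 stands for 2-fold higher in E47 cells. That E47 is the numerator is likely, since each label lists it as channel 1, but is not stated, and the base of the logarithm is read as 2. Arrays gave a value for 24771 to 25537 of 27648 spots, and their number limits the precision. In the whole cells, the adhesion gene CDH1, the target named in the title, was at −3.59, and 6 of 6 measured epithelial markers fell (CDH1, EPCAM, KRT19, KRT8, DSP and CLDN4, from −3.59 to −0.92), while of 3 measured mesenchymal markers FN1 and SPARC rose, at 2.29 and 2.85, and CDH2 was at 0.02. KRT18 and VIM were fixed as markers too and were not analysed here. In bulk RNA a smaller share of cells with a transcript cannot be told apart from less of it in each cell.

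The splicing and helicase genes lay on both sides of 0, and the 3 highest means were those of 3 Sm proteins. SNRPE, SNRPF and SNRPG, the members of a single Sm unit, rose by 2.03-fold, 2.06-fold and 2.11-fold. MBNL2, a muscleblind splicing regulator, rose too, at a mean log2 ratio of 0.58. For the other 79 genes limma gave an adjusted p above the threshold of 0.05. The 4 that passed are 4.82% of the 83 genes, against 9.19% of all named genes. All 4 were higher, against a background of 5.34% of named genes called higher and 3.85% called lower. The order of the shares was not the same in every setting. When p-values were adjusted over named genes alone, 19 of the 83 genes passed (22.9%), against 21.3% of all named genes. With a dye term 13.3% of the 83 passed, against 13.5%. The difference between the shares was not tested.

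No gene of the 83 was called lower by limma at the adjusted threshold, and 12 were lower at an unadjusted p under 0.05, beside 21 that were higher. Together these are 39.8% of the 83 genes, against 35.6% of all named genes. The median log2 ratio of the 83 genes was −0.01, against −0.02 for all named genes, with 41 means above 0 and 42 below. The mean ratios ran from −0.81 for ESRP2 to 1.08 for SNRPG. The median size of the log2 ratio, without its sign, was 0.21 for the 83 genes and 0.20 for all named genes. Of the 83, 10 differed by at least 1.5-fold (12.05%), against 13.0% of named genes, and 3 by at least 2-fold (3.61%), against 4.76%.

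**Figure D1:**
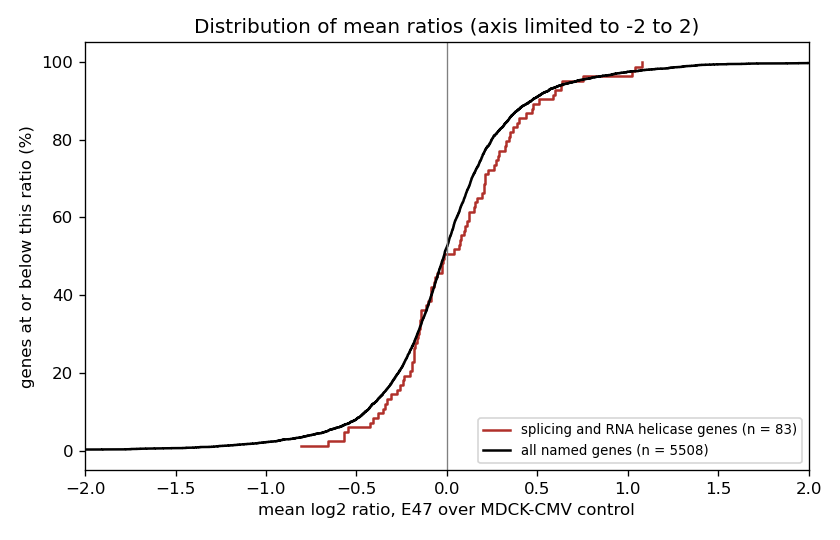
Cumulative percentage of genes (vertical axis) at or below each mean log2 ratio of E47 over control (horizontal axis, limited to −2 to 2), for the 83 splicing and RNA helicase genes and for all 5508 named genes. Both curves cross the middle near 0, at medians of −0.01 and −0.02, and the 83 genes end at −0.81 and 1.08.

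The order of these genes was similar on the 3 arrays. Across the 83 genes, Pearson's r was 0.85 between the array of extraction 1 and the Cy5 array of extraction 2, 0.71 between the array of extraction 1 and the Cy3 array, and 0.80 within the dye swap. Across all named genes the same values were 0.85, 0.69 and 0.76. These are correlations across genes of arrays that share control cells and, within the dye swap, the E47 RNA, and genes are not independent replicates. Of the 83 genes, 34 were above 0 on all 3 arrays, 24 below 0 on all 3 and 25 mixed, so 69.9% kept a sign, against 63.3% of named genes. Most clones were spotted in pairs, and the median difference between paired spots was 0.05 on both Cy5 arrays and 0.03 on the Cy3 array.

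**Figure D2:**
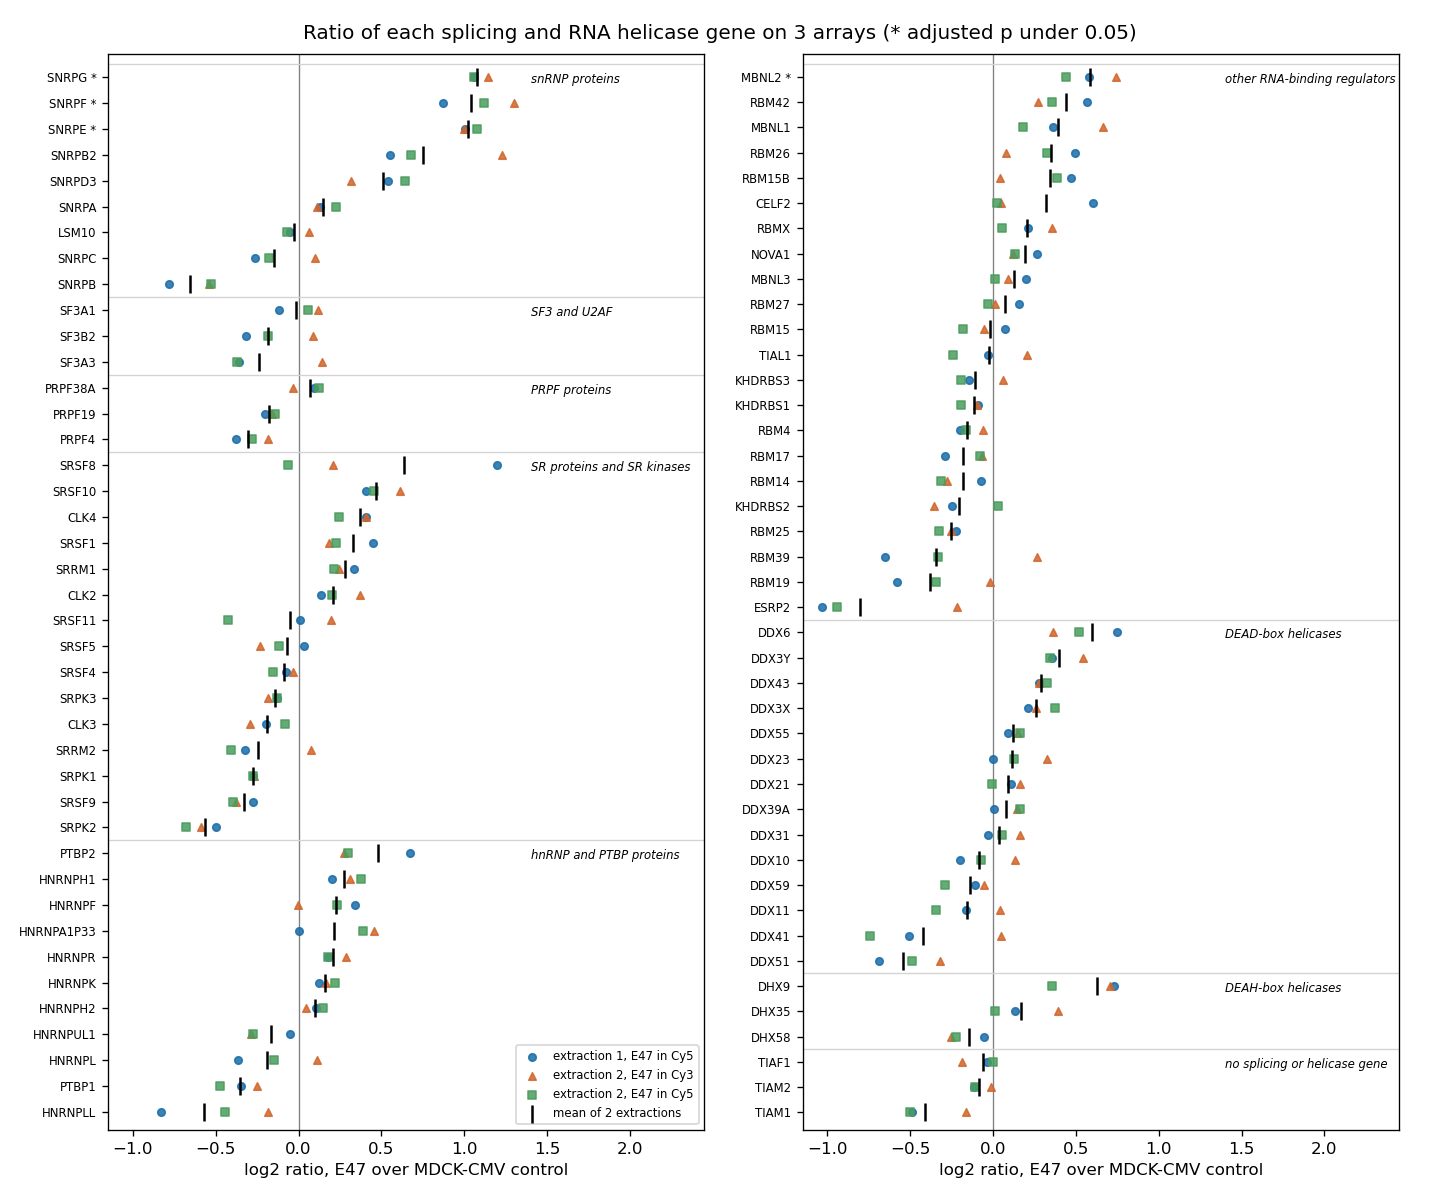
Log2 ratio of E47 over control (horizontal axis) for each of the 83 genes (rows, grouped by role and sorted by mean), with 1 symbol per array and a bar at the mean of 2 extractions; an asterisk marks an adjusted p under 0.05. SNRPG, SNRPF and SNRPE stand near 1 on every array, and ESRP2 at −0.81 is the lowest mean.

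The snRNP proteins held 3 of the 4 calls. Of 9 measured genes (8 SNRP genes and LSM10) 3 rose, none fell and 6 did not pass, so 33.3% were called, against 9.19% of all named genes (5.34% called higher). Their median log2 ratio was 0.51, against −0.02 for all named genes. In this group 5 of 9 genes differed by at least 1.5-fold, against 5 of the other 74 and 13.0% of all named genes. The snRNP group was described after the values of its members were known and was given no test of its own.

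SNRPG had log2 ratios of 1.06 on the array of extraction 1 and 1.14 (Cy3) and 1.06 (Cy5) on those of extraction 2. Its mean was 1.08 ± 0.03 (SD, n = 2 extractions). The moderated SE was 0.08 and the limma adjusted p was 0.0203. The 3 values lay within 0.1 of each other, on the 1 spot that had a value on every array. Read as natural logarithms the same mean would be 2.94-fold.

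SNRPE was at 1.00 in extraction 1 and at 1.00 (Cy3) and 1.08 (Cy5) in extraction 2. The mean was 1.02 ± 0.02 (SD, n = 2), with a limma adjusted p of 0.0214. These values were as close together as those of SNRPG.

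SNRPF was at 0.87 in extraction 1 and at 1.30 (Cy3) and 1.12 (Cy5) in extraction 2, with a mean of 1.04 ± 0.24 (SD, n = 2) and a limma adjusted p of 0.0324. Extraction 2 was the higher one in both dyes. All 9 array values of SNRPE, SNRPF and SNRPG were above 0.85, and SNRPE, SNRPF and SNRPG were each measured by 1 clone. Without the Cy5 array of extraction 2, SNRPG alone kept its call, at an adjusted p of 0.0478. SNRPE and SNRPF were then at 1.00 and 1.08, with adjusted p-values of 0.0534 and 0.0685. With scaled arrays the adjusted p of SNRPF was 0.0652.

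The partners SNRPD3 and SNRPB lay on opposite sides of 0. SNRPD3 was at 0.54 in extraction 1 and at 0.32 (Cy3) and 0.64 (Cy5) in extraction 2, with a mean of 0.51 ± 0.04 (SD, n = 2) and an adjusted p of 0.0561. SNRPB was at −0.78 in extraction 1 and at −0.54 (Cy3) and −0.53 (Cy5) in extraction 2, with a mean of −0.66 ± 0.17 (SD, n = 2) and an adjusted p of 0.0521. Neither passed in this fit, although each kept its side on all 3 arrays. When a dye term was fitted to the 3 arrays, both passed, SNRPB with an adjusted p of 0.0469. That fit, here and for the genes below, counts the dye swap arrays, which share their RNA, as separate observations. Over 10 tested fits the adjusted p ran from 0.025 to 0.216 for SNRPD3 and from 0.025 to 0.11 for SNRPB. The human SNRPB clone may also bind transcripts of its close paralog SNRPN, which was not tested.

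SNRPD1 and SNRPD2, which form the remaining Sm unit, were not among the 94 genes found by symbol. The other measured snRNP proteins belong to U1, U2 and U7. SNRPB2, a U2 protein that binds U2 RNA, was at 0.55 in extraction 1 and at 1.22 (Cy3) and 0.68 (Cy5) in extraction 2, with a mean of 0.75 ± 0.28 (SD, n = 2) and an adjusted p of 0.0607. The Cy3 value set it apart, and with a dye term the mean was 0.92 and the adjusted p 0.0225. The adjusted p was 0.146 when the Cy5 array of extraction 2 was left out and 0.0936 when arrays were scaled. The U1 proteins were smaller: SNRPA was between 0.11 and 0.23 on the 3 arrays, and SNRPC at −0.26, 0.10 and −0.18, with its 2 clones at means of −0.39 and −0.09. LSM10, a U7 protein of histone mRNA processing, was between −0.07 and 0.06.

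**Figure D3:**
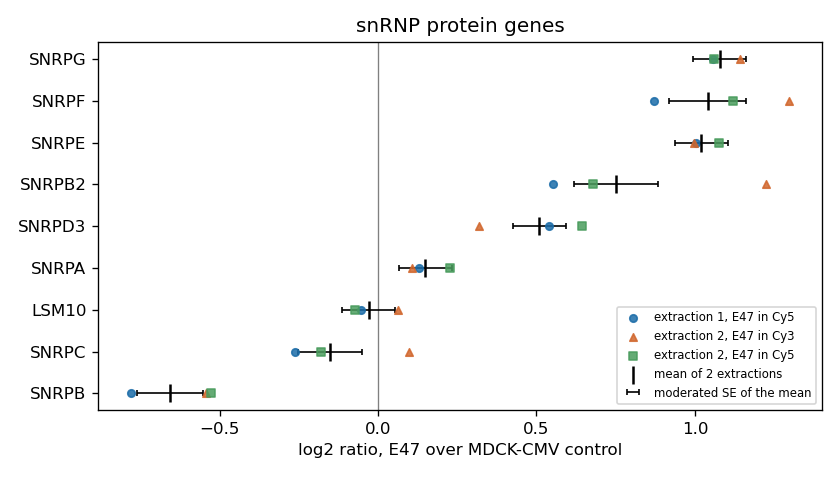
Log2 ratio of E47 over control (horizontal axis) for the 9 snRNP protein genes (rows), with 1 symbol per array, a bar at the mean of 2 extractions and whiskers of 1 moderated SE. SNRPG, SNRPF and SNRPE lie at 1.08, 1.04 and 1.02, SNRPB at −0.66.

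No gene of the U2-bound SF3 complex or of the PRPF proteins passed (0 of 3 in each group by limma). At an unadjusted p under 0.05 there were 0 and 1. Of all named genes, 9.19% passed and 35.6% had an unadjusted p under 0.05. SF3A1, SF3A3 and SF3B2 had means of −0.01, −0.24 and −0.18, and each was above 0 on the Cy3 array and below 0 in extraction 1. PRPF4, a protein of the U4/U6 particle, had a mean of −0.31, PRPF19, a ubiquitin ligase bound to the active spliceosome, −0.18 and PRPF38A 0.07.

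The PRPF4 mean hides disagreement between clones. The lower clone was at −0.93 in extraction 1 and at −0.67 (Cy3) and −0.73 (Cy5) in extraction 2, and with clones tested one by one it passed, at an adjusted p of 0.0342. The other PRPF4 clone was at 0.17, 0.30 and 0.16, with an adjusted p of 0.198. Each clone was measured alike on all 3 arrays, so the array values of the 2 clones did not overlap.

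Among 15 SR proteins, SR-related proteins and SR protein kinases none passed by limma, with 4 higher and 3 lower at an unadjusted p under 0.05. Of all named genes 9.19% passed. The unadjusted share was 46.7% of the 15 genes, against 35.6% of all named genes. The median log2 ratio was −0.07. The SRPK kinases, which phosphorylate SR proteins in the cytoplasm and thereby favour their import into the nucleus, were below 0 in all 9 array values. These values are averages over the spots of each gene, and an SRPK3 clone was at 0.10 in extraction 1.

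SRPK2 was at −0.50 in extraction 1 and at −0.59 (Cy3) and −0.68 (Cy5) in extraction 2. Its mean was −0.57 ± 0.09 (SD, n = 2), with an adjusted p of 0.0520, among the nearest to the threshold from outside. It passed with a dye term, at 0.0401, and with the median over its 4 spots, at 0.0467. It also passed when the Cy3 array was left out (0.0456) and with named genes alone (0.0239), so in 4 of 10 tested fits. It did not pass when the Cy5 array of extraction 2 was left out (0.129) or when arrays were scaled (0.0741).

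SRPK1 was at −0.28, −0.27 and −0.27 on the 3 arrays, nearly the same value each time, and SRPK3 at −0.13, −0.19 and −0.13, from clones with means of −0.37 and −0.03. Their adjusted p-values were 0.127 and 0.299. The CLK kinases, which phosphorylate SR proteins inside the nucleus, were mixed: CLK4 had a mean of 0.37, with array values from 0.25 to 0.41, CLK2 of 0.21 and CLK3 of −0.19. The CLK2 clones differed in sign, at means of 0.69 and −0.27. The higher CLK2 clone passed when clones were tested one by one, at an adjusted p of 0.0383.

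Of the SR proteins, SRSF10, which acts as a repressor when dephosphorylated, was at 0.40 in extraction 1 and at 0.61 (Cy3) and 0.45 (Cy5) in extraction 2. Its mean was 0.47 ± 0.09 (SD, n = 2), with an adjusted p of 0.0684, and with a dye term it passed at 0.0376. Leaving out the Cy5 array of extraction 2 gave 0.166. SRSF1, the best studied SR protein, known to act on splicing of the RON receptor transcript, had a mean of 0.33 and array values of 0.45, 0.18 and 0.22, from 1 spot. SRSF9 lay at −0.33, with all 3 arrays between −0.40 and −0.27.

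SRSF8, a close relative of SRSF2, had the highest mean of the group, 0.63, and the widest spread: 1.20 in extraction 1, and 0.21 (Cy3) and −0.07 (Cy5) in extraction 2. Its SD of 0.79 over n = 2 exceeded its mean, and its symbol is not in the dog gene table, so the human clone may bind related transcripts. SRSF11 had array values of 0.01, 0.20 and −0.43, and its lowest value came from a single spot of 1 clone, at −1.46 on the Cy5 array of extraction 2. SRSF4 and SRSF5 had means of −0.09 and −0.07. SRRM1 and SRRM2, large SR-related proteins of the nuclear matrix, were at 0.28 (array values from 0.22 to 0.34, with both clones alike) and at −0.24 (from −0.41 to 0.08).

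The 11 hnRNP and PTBP genes also had no call by limma, with 2 higher and 2 lower at an unadjusted p under 0.05 and a median of 0.16. That unadjusted share was 36.4%, against 35.6% of all named genes, of which 9.19% were called. PTBP1, a repressor of exons flanked by pyrimidine tracts, was at −0.35 in extraction 1 and at −0.25 (Cy3) and −0.47 (Cy5) in extraction 2. Its mean was −0.35 ± 0.01 (SD, n = 2), with an adjusted p of 0.0911. Its paralog PTBP2, found mainly in neurons, was at 0.67 in extraction 1 and at 0.27 (Cy3) and 0.30 (Cy5) in extraction 2, with a mean of 0.48 ± 0.27 (SD, n = 2) and an adjusted p of 0.111. The paralogs thus lay on opposite sides of 0 on every array and neither passed. PTBP1 is known to repress an exon of PTBP2 in mammals, which is given here as background only.

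HNRNPLL, a relative of hnRNP L known for CD45 splicing in lymphocytes, had the lowest mean of the group, −0.57, with −0.83 in extraction 1 against −0.18 (Cy3) and −0.45 (Cy5) in extraction 2 (SD 0.36, n = 2, adjusted p 0.112). HNRNPL was at −0.19 and HNRNPUL1 at −0.17. HNRNPH1, HNRNPH2, HNRNPF, HNRNPR and HNRNPK had means from 0.10 to 0.27, and of these HNRNPF alone dipped below 0, on the Cy3 array. HNRNPA1P33 is a human pseudogene of HNRNPA1, so its clone, at a mean of 0.21, may report the parent gene or its relatives.

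Among 22 other RNA-binding regulators, 1 rose, none fell and 21 did not pass. That is 4.55% called, against 9.19% of all named genes. At an unadjusted p under 0.05, 5 were higher and 2 lower (31.8%, against 35.6% of all named genes). The median log2 ratio was −0.02. MBNL2 was the gene that rose. It was at 0.58 in extraction 1 and at 0.74 (Cy3) and 0.44 (Cy5) in extraction 2, with a mean of 0.58 ± 0.01 (SD, n = 2) and a limma adjusted p of 0.0433. The dye swap arrays differed by 0.30, and their average lay close to extraction 1. MBNL2 lost its call when the Cy5 array of extraction 2 was left out (adjusted p 0.0994) and when arrays were scaled (0.0596).

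The other muscleblind genes were also above 0 on all 3 arrays. MBNL1 was at 0.36, 0.66 and 0.18, with a mean of 0.39, an adjusted p of 0.0821 and clones at 0.22 and 0.56. MBNL3 was at 0.20, 0.09 and 0.01, with a mean of 0.12. The Cy3 array was the highest for MBNL1 and MBNL2. Human clones of these genes may bind more than 1 muscleblind transcript, which was not tested.

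ESRP2, an epithelial splicing regulator that keeps epithelial isoforms of CD44, FGFR2 and other transcripts, had the lowest mean ratio of all 83 genes. It was at −1.03 in extraction 1 and at −0.22 (Cy3) and −0.94 (Cy5) in extraction 2, from a single spot. The mean was −0.81 ± 0.32 (SD, n = 2), or 1.75-fold below the control, and the adjusted p was 0.0619. All 3 values were below 0, but the dye swap arrays of the same RNA differed by 0.72, a gap that only DDX41 exceeded. ESRP2 passed when a dye term was fitted (adjusted p 0.0333), when arrays were scaled (0.0475) and when the Cy3 array was left out (0.0284). Without the Cy5 array of extraction 2 its adjusted p was 0.296. The epithelial markers above, from −3.59 to −0.92, lay lower still. Their part in the ESRP2 value was not tested.

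The KHDRBS genes, signal-responsive KH-domain proteins, had means of −0.12 for KHDRBS1, −0.20 for KHDRBS2 and −0.11 for KHDRBS3. KHDRBS1, also called Sam68, is known to act on CD44 exons, and its clones lay at −0.28 and 0.22. CELF2 had a mean of 0.32, with 0.60 in extraction 1 against 0.05 (Cy3) and 0.02 (Cy5) in extraction 2, so its mean rests on extraction 1. NOVA1, a neuronal regulator, was at 0.19, and TIAL1, a relative of TIA1 that binds U-rich sequence, was between −0.24 and 0.20 on the arrays.

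The 12 RBM genes had no call by limma (3 higher and 1 lower at an unadjusted p under 0.05) and a median of −0.09. That unadjusted share was 33.3%, against 35.6% of all named genes, of which 9.19% were called. RBM42 was the highest, with 0.57 in extraction 1, 0.27 (Cy3) and 0.35 (Cy5) in extraction 2 and an adjusted p of 0.0957. RBM26 and RBM15B followed at means of 0.35 and 0.34, RBM15B being an adaptor of the m6A methyltransferase. RBM19, a ribosome assembly factor, was lowest at a mean of −0.38, with −0.58 in extraction 1 and −0.02 (Cy3) and −0.34 (Cy5) in extraction 2. RBM39, a U2AF-related splicing factor, was at −0.65, 0.27 and −0.33, so that the dye swap arrays differed in sign. RBM25, RBM14, RBM17, RBM4, RBM15, RBM27 and RBMX had means from −0.26 to 0.21, and the RBM4 clones were at −0.31 and 0.0031.

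None of 14 DEAD-box helicases passed by limma, with 4 higher and 2 lower at an unadjusted p under 0.05 and a median of 0.09. That unadjusted share was 42.9%, against 35.6% of all named genes, of which 9.19% were called. DDX6, a helicase of mRNA decapping and P-bodies, was at 0.75 in extraction 1 and at 0.36 (Cy3) and 0.52 (Cy5) in extraction 2. Its mean was 0.60 ± 0.22 (SD, n = 2), with an adjusted p of 0.0700. DDX3X, a helicase of translation initiation, was at 0.21, 0.26 and 0.37, and the clone of its paralog DDX3Y at 0.36, 0.54 and 0.34, with adjusted p-values of 0.146 and 0.0809. The dog gene table holds no DDX3Y, and both clones may bind the same transcript. DDX43 was also above 0 on every array, with values from 0.28 to 0.32.

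At the low end, DDX51, a helicase of ribosomal RNA processing, was at −0.69 in extraction 1 and at −0.32 (Cy3) and −0.49 (Cy5) in extraction 2, with a mean of −0.55 ± 0.20 (SD, n = 2) and an adjusted p of 0.0734. DDX41 was at −0.50, 0.05 and −0.74, with a mean of −0.43 and an adjusted p of 0.0824, and on the dye swap Cy5 minus Cy3 came to −0.79, the widest gap of the 83 genes. The spliceosomal helicase DDX23 had a mean of 0.11 and the export helicase DDX39A one of 0.08. The nucleolar or ribosome assembly helicases DDX10, DDX21, DDX31 and DDX55 had means from −0.09 to 0.12. DDX59 was at −0.14, and DDX11, a DNA helicase of sister chromatid cohesion despite its symbol, was at −0.16.

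Of 3 genes with DHX symbols none passed by limma, and 1 was higher at an unadjusted p under 0.05. The shares of all named genes were 9.19% and 35.6%. DHX9, also called RNA helicase A, was at 0.73 in extraction 1 and at 0.70 (Cy3) and 0.36 (Cy5) in extraction 2. Its mean was 0.63 ± 0.14 (SD, n = 2), and its adjusted p of 0.0505 was the closest to the threshold from outside, followed by SRPK2 at 0.0520 and SNRPB at 0.0521. On the other side of the threshold stood MBNL2 at 0.0433, SNRPF at 0.0324 and SNRPE at 0.0214. DHX9 passed under robust eBayes (adjusted p 0.0498) and after scaling of the arrays (0.0460). It did not pass with a dye term (0.061), nor when the Cy3 array (0.0724) or the Cy5 array (0.0797) of extraction 2 was left out. DHX35, a spliceosome-associated helicase, had a mean of 0.17, and DHX58, an antiviral RNA sensor related to RIG-I, one of −0.15.

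The genes that entered by symbol alone did not pass either. TIAM1, an exchange factor for the GTPase Rac that takes part in epithelial adhesion, was at −0.49, −0.16 and −0.50, with a mean of −0.41 and an adjusted p of 0.0862. TIAM2, its paralog, had a mean of −0.09 from clones at −0.20, −0.14 and 0.20, and TIAF1 was at −0.06.

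Both arrays of the dye swap hold the same RNA, so their gap measures dye and hybridisation and not the cells. The median gap between them was 0.15 for the 83 genes and 0.17 for all named genes. For 20 of the 83 genes the dye swap arrays differed in sign, and for 6 genes they differed by more than 0.5: DDX41, ESRP2, SRSF11, RBM39, SNRPB2 and SF3A3. In each of these 6 the Cy3 array gave the higher ratio. The sign on extraction 1, which was hybridised in Cy5 only, matched that of the Cy5 array of extraction 2 in 72 of 83 genes. Sign matches with the Cy3 array were not counted, nor were any of these counts made over all named genes. Pearson's r of extraction 1 was 0.85 with the Cy5 array and 0.71 with the Cy3 array. Across all named genes it was 0.85 and 0.69, so the 83 genes were similar to the rest in this. The part of the dye in the extraction 1 values was not tested.

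**Figure D4:**
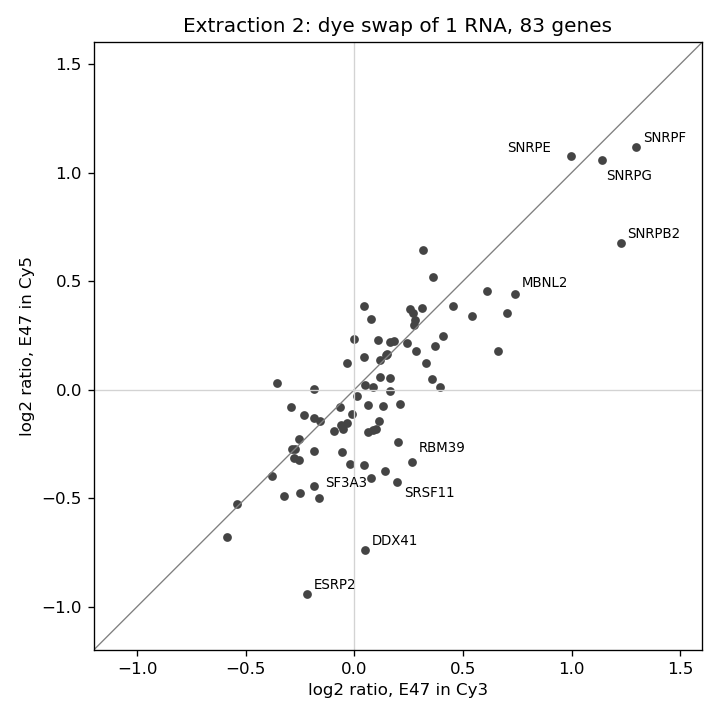
Log2 ratios of the 83 genes on the dye swap of extraction 2, with E47 in Cy3 (horizontal axis) and E47 in Cy5 (vertical axis); the diagonal marks equal values, and genes that passed or differed by more than 0.5 are named. SNRPE, SNRPF and SNRPG lie near the diagonal at about 1, while ESRP2 and DDX41 lie far below it.

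Of the 83 genes, 13 had more than 1 clone, and in 6 of these the clone means differed in sign: CLK2, KHDRBS1, PRPF4, RBM4, SRSF11 and TIAM2. Among all named genes 401 of 1040 with several clones did so. The gap was widest for PRPF4, at 0.20 and −0.82, and CLK2, at 0.69 and −0.27, while SRRM1 had clones at 0.26 and 0.30. For such genes the averaged ratio describes no single clone. Where on the transcript each clone lies was not analysed here.

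**Figure D5:**
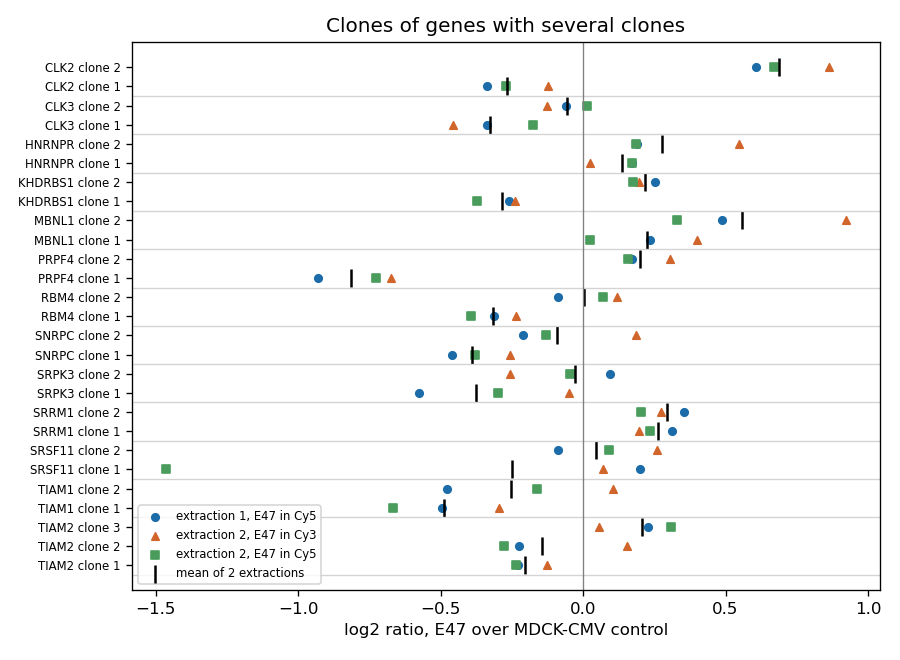
Log2 ratio of E47 over control (horizontal axis) for each clone of the 13 genes with several clones (rows), with 1 symbol per array and a bar at the mean of 2 extractions. The PRPF4 clones lie at 0.20 and −0.82 and the CLK2 clones at 0.69 and −0.27, with no overlap between clones of either gene.

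Of 130 listed genes outside the symbol rule (spliceosome proteins, further regulators, exon junction, export and decay factors, 3′ end processing factors and other RNA helicases), 53 were measured, 1 fell and none rose by limma, with 9 higher and 9 lower at an unadjusted p under 0.05. That is 1.89% called, against 9.19% of all named genes. At an unadjusted p under 0.05 the shares were 34.0% of the 53 genes and 35.6% of all named genes, and the median log2 ratio was 0.01. NONO, a paraspeckle protein, fell. It was at −0.62 in extraction 1 and at −0.31 (Cy3) and −0.74 (Cy5) in extraction 2, with a mean of −0.57 and a limma adjusted p of 0.0479. It lost its call narrowly when arrays were centred on the median, when they were scaled (adjusted p 0.0524) or when incomplete spots were kept (0.0506), and more widely when the Cy5 array of extraction 2 was left out (0.215).

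The largest other ratios, chosen after their values were seen, came from CIRBP, PUF60 and SNRNP40. CIRBP, a cold-inducible RNA-binding protein, had a mean of −0.78, and PUF60, a U2AF-related factor of splice site recognition, one of −0.73, with adjusted p-values of 0.0786 and 0.0537. SNRNP40, a U5 protein, was at 0.36 in extraction 1 and at 0.96 (Cy3) and 0.58 (Cy5) in extraction 2, with a mean of 0.57 and an adjusted p of 0.0924. SFPQ, the partner of NONO in paraspeckles, was at 0.36, on the opposite side of 0 from NONO on all 3 arrays, with an adjusted p of 0.0947. None of these 4 passed.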

How the data were processed

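RNA of E47-transfected and MDCK-CMV control MDCK cells shared each of 3 two-colour arrays. The deposited values, 1 column per array, were read as log2 ratios. Their log base, direction, background correction and normalization are not stated in any source at hand. Base 10 was left out because the largest value, 7.80, is above 4.82, the log10 of a scanner's range. Column medians were −0.0051, 0.0027 and 7.67e-04. The dye swap correlated positively with the other arrays, so no sign was turned. Signal over background is unknown, and no filter on dim spots was applied.

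Gene symbols came from the platform annotation, in which 17488 spots had 1 symbol, 654 several and 9506 none. The dog gene table held 78 of the 83 symbols. Rows with several symbols were left out. Only spots measured on every array (23275) entered; they were averaged per gene, and those without a single symbol were tested one by one. The dye swap was averaged. The mean ratio of each of 14008 features was compared with 0 in limma 3.58.1 in R 4.3.3 (lmFit, eBayes, Benjamini-Hochberg, threshold 0.05; 1 residual and 2.71 prior degrees of freedom), which leaves out the control's own spread. On simulated data it called 52 of 100 features changed by 2-fold, 95 of 100 by 4-fold and 15 of 13808 unchanged ones. The simulated ratios followed the variance model that limma itself fitted, with no dye effect and 200 of 14008 features changed. These rates therefore need not hold for the arrays. Figures used matplotlib 3.10.9.

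The genes and lists were chosen with earlier results of these data known. Genes were named if they passed, were extreme in their role group, had clones of opposite sign, differed most in the dye swap or were known regulators of epithelial splicing; the text adds the other genes of each group. Alternatives changed dye and replicate handling, scaling, spot averaging, the features tested, eBayes and the threshold.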

Additional observations from a re-analysis of the deposited data

How the results depend on the processing

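Over 10 tested fits SNRPG passed in 10, SNRPE in 9, and SNRPF and MBNL2 in 8 each, and none changed sign. Leaving out single arrays moved the calls among the 83 genes between 1 and 7 higher and 0 and 6 lower, and among all named genes between 74 and 448 higher and 35 and 471 lower; the low ends came without the Cy5 array of extraction 2 and the high ends without its Cy3 array. It moved the calls among the other RNA processing genes between 0 and 3 lower, with 0 higher, and the median of the 83 genes between −0.0165 and 0.0649. Without extraction 1 no test was possible, since only the dye swap of 1 RNA remains, and the median was 0.0298. With a dye term 8 of the 83 genes were higher and 3 lower, beside 424 of all named genes higher and 319 lower. That fit counts arrays of the same RNA as separate observations. In it 1 other RNA processing gene was higher and 3 lower, and the median of the 83 genes was 0.0369. Testing named genes alone, which adjusts over fewer features, gave 12 higher and 7 lower, with 624 and 551 of all named genes and 3 and 5 of the other RNA processing genes. A threshold of 0.1 gave 13 and 7, 653 and 591, and 4 and 5. Scaled arrays gave 3 higher and 2 lower (6.02% of the 83 genes, against 7.93% of all named genes) and a median of 0.0079. The median over spots gave 4 higher and 1 lower (6.02%, against 9.08%) and a median of 0.0371. When clones were tested one by one, 6 clones of these genes were higher and 3 lower. That is a count of clones and not of genes, and no share over all clones was computed. Among them were a CLK2 clone and a PRPF4 clone whose partner clones lay on the opposite side of 0 and did not pass. The single call among the other RNA processing genes became 0 with median-centred arrays and with incomplete spots kept. Robust eBayes left every count within 1.5 times. Reading the values as natural logarithms rescales all ratios alike and cannot change a call. Updating symbols added and removed no gene, so neither of these is a check on the counts. The extraction as a random block was not run because its correlation could not be estimated. No paired analysis was possible because the arrays hold 1 group. The cause of these changes was not tested unless stated.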

Other observations

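Of the 94 genes that match by symbol, 11 had no value on at least 1 array and enter no comparison. For 7 of them 2 arrays gave a value, for 3 only 1 array did, and DDX17 had none. CLK1, a nuclear kinase of SR proteins like CLK4, was at 0.72 in extraction 1 and 0.75 in extraction 2, both with E47 in Cy5. RBM7, a subunit of the nuclear exosome targeting complex, was at 0.41 and 0.75 on the same arrays. DDX20, a helicase of the SMN complex that loads Sm proteins onto small nuclear RNA, was at 0.28 and 0.18, and DHX16, a spliceosomal helicase, at 0.30 and 0.19. HNRNPD, at 0.04 and 0.02, and PRPF18, at −0.06 and −0.16, lay nearer 0. U2AF1L4, a relative of the splice site factor U2AF1, was at −0.80 in extraction 1 and −0.22 in extraction 2 with E47 in Cy3. PRPF8, the central U5 protein, HNRNPH3 and RBM38 had the Cy3 array only, at 0.25, −0.30 and −0.17. These values lack the dye or extraction that would complete them, and no test was made.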
